A study of Mus musculus with 30 samples.

Results

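Macrophages without TRAM were compared 6 h after lipopolysaccharide (LPS) and without treatment, by RNA sequencing. TRAM is the adaptor protein encoded by Ticam2. The comparison rests on 6 of the 30 libraries of the series, 3 from Ticam2-/- macrophages given 10 ng/mL LPS for 6 h and 3 from untreated Ticam2-/- macrophages, both written KO below, and takes in every gene measured, 15119 of them after a filter on low counts. The cells were grown from the bone marrow of C57BL/6J wild-type (WT) or Ticam2-/- mice in medium with L929 supernatant, a source of macrophage colony-stimulating factor, after lysis of red blood cells. Cells came from 3 animals of each genotype, 1 for each replicate of a condition, and the labels do not say which libraries share an animal. Both KO groups carry the deletion. Beside the comparison stand the untreated and LPS 6 h libraries of WT macrophages, 3 of each with the same dose, and 3 libraries of KO macrophages given 100 ng/mL lipoteichoic acid (LTA) for 6 h.

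LPS, a cell wall component of Gram-negative bacteria, is handed by CD14 to Toll-like receptor 4 (TLR4) and its partner MD-2. At the plasma membrane TLR4 signals through the adaptors TIRAP and MyD88 to NF-kB and the MAP kinases. After uptake into endosomes it signals through TRAM and TRIF to TBK1 and the transcription factor IRF3, which turns on interferon beta, and interferon beta then acts back on the cell to raise interferon-stimulated genes. LTA, from Gram-positive bacteria, is sensed chiefly by TLR2, which uses TIRAP and MyD88. The KO comparison asks what the macrophage still does in response to LPS when the bridge from TLR4 to TRIF is missing.

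The 4 promoters below belong to 2 genes whose rise in KO was close to that in WT, Tnf and Cxcl2, and to 2 genes that kept little of it, Cxcl10 and Rsad2. Each line gives the 250 bases before the transcription start, 5′ to 3′ on the strand of the gene, from RefSeq (GRCm38.p6). Capitals mark matches on either strand to the 10-base kappaB consensus, the binding sequence of NF-kB, or to GAAA followed after any 2 bases by GAAA, the core of the interferon-stimulated response element (ISRE) bound by IRF proteins.
Tnf, chr17:35202008-35202257, minus strand: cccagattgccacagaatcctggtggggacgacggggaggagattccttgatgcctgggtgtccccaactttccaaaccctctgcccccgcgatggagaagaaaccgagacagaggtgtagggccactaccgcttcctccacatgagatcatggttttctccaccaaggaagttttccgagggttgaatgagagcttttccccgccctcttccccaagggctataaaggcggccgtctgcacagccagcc
Cxcl2, chr5:90903649-90903898, plus strand: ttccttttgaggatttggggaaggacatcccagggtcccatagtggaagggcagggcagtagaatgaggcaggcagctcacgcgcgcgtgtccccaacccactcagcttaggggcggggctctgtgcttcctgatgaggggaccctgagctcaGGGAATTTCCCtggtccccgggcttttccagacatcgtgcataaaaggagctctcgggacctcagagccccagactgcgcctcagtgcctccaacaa
Cxcl10, chr5:92348890-92349139, minus strand: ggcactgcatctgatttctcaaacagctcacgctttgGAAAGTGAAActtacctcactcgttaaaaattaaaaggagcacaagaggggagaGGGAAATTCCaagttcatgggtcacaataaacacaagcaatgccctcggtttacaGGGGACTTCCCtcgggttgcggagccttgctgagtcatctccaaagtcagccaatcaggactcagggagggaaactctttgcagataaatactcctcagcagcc
Rsad2, chr12:26456453-26456702, minus strand: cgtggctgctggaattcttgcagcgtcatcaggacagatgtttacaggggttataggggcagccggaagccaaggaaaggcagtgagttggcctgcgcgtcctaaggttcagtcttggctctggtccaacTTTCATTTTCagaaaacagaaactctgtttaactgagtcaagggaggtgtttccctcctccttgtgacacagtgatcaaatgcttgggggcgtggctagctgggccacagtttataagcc

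The Cxcl2 window held overlapping kappaB matches from base -97 to base -87, counted back from the start. The Cxcl10 window held kappaB matches from base -159 and from base -104 and an ISRE match from base -213 to base -204. The Rsad2 window held an ISRE match from base -120 to base -111 and no kappaB match, and the Tnf window held neither. Among all 27025 promoter windows of the table, which reach from 250 bases before to 50 bases after the start, 8.22% held the kappaB consensus and 3.48% the ISRE core. Of the 24 genes in the list of NF-kB subunits and feedback inhibitors used below, 20 had a window and 11 of these held the kappaB consensus. Only 9803 of 15107 symbols tested had a window, too few to compare the larger gene classes.

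The identity of the cells was checked against 14 macrophage markers, all of them measured. With LPS, 7 of them fell, 1 rose and 6 were not called, with a median log2 fold change of -0.11, and with library totals 12 fell. Over all genes tested in KO, 26.6% fell and 25.7% rose. Lyz2, lysozyme of myeloid cells, lay at 20140, 20430 and 20160 CPM, counts scaled to a common library size, in the untreated KO libraries and at 18820, 21260 and 20740 with LPS. None of the 9 markers of T and NK cells passed the filter, and their levels below it were not summed. Haemoglobin genes were present. The summed level of the 7 tested markers of red cells and platelets was 5018 to 5385 CPM without and 5686 to 6883 CPM with LPS. Of the 7 tested, 4 rose, but only 1 without the LPS replicate 1, in which Hbb-bs was at 2665 CPM against 2131 and 2126 CPM in replicates 2 and 3. Ticam2 itself had 10, 9 and 5 counts in the untreated KO libraries and 26, 19 and 14 with LPS. In CPM these were means of 0.625 and 1.57, against a mean of 10.1 CPM in untreated WT. The 6 libraries held 10791175 to 13521660 counts. With LPS, replicate 1 stood further from the others than they did from each other. The standard deviation of its log2 CPM difference was 0.148 to replicate 2 and 0.1475 to replicate 3, against 0.0942 between replicates 2 and 3. Malat1, a nuclear non-coding RNA, split these libraries the other way. It was at 386 CPM in replicate 1, near the 295 to 333 CPM of untreated KO and the 294 to 479 CPM of KO with LTA, and at 164 and 189 CPM in replicates 2 and 3. Some counts are also given without replicate 1, and counts given only with it may change too. Without it, 7647 genes were called in KO, 3797 higher and 3850 lower, in place of the 7908 given below. Summed markers of fibroblasts went from between 9.50 and 9.76 CPM to between 17.9 and 22.7 CPM, with 4 of 7 tested genes called, 2 of them without that library, and Dcn, Lum and Pdgfra did not pass the filter. The part of other cells in the results was not tested. Fth-ps2, a ferritin pseudogene described in the closing section, had 0 counts in every untreated library and at least 1483 in every library of 6 h. Whether untreated and 6 h libraries were counted in 1 run with the same settings is not stated, which bears on each comparison of LPS with untreated cells and was not tested.

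LPS changed the expression of 7908 genes in KO macrophages, 3890 higher and 4018 lower (edgeR, quasi-likelihood, at a Benjamini-Hochberg adjusted p of 0.05). This is 52.3% of the genes tested, 25.7% of them higher and 26.6% lower. In WT, 72.7% of the genes changed, 36.6% higher and 36.1% lower, and the difference between the genotypes was called for 50.5%, with 27% higher and 23.5% lower in KO. That balance also turned with relative log expression factors (3560 higher, 4141 lower), with DESeq2 (3223 and 3878) and without any 1 of the WT LPS replicates 1, 2 and 3 (3570 and 3785, 3548 and 3786, 3596 and 3750). Most changes were small, with a median rise of 0.49 and a median fall of 0.53 on the log2 scale among called genes. At least 2-fold, 1008 genes rose (6.67%) and 631 fell (4.17%), and at least 8-fold, 197 rose and 4 fell. Without the LPS library of replicate 1, 994 genes rose and 698 fell at least 2-fold. Scaled by library totals alone, the median gene shifted by -0.19 on the log2 scale and the split turned to 2365 higher and 6341 lower, and at 2-fold or more to 842 higher and 1098 lower. The balance of rises and falls therefore depends on the scaling, and directions are given relative to the median gene.

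**Figure D1:**
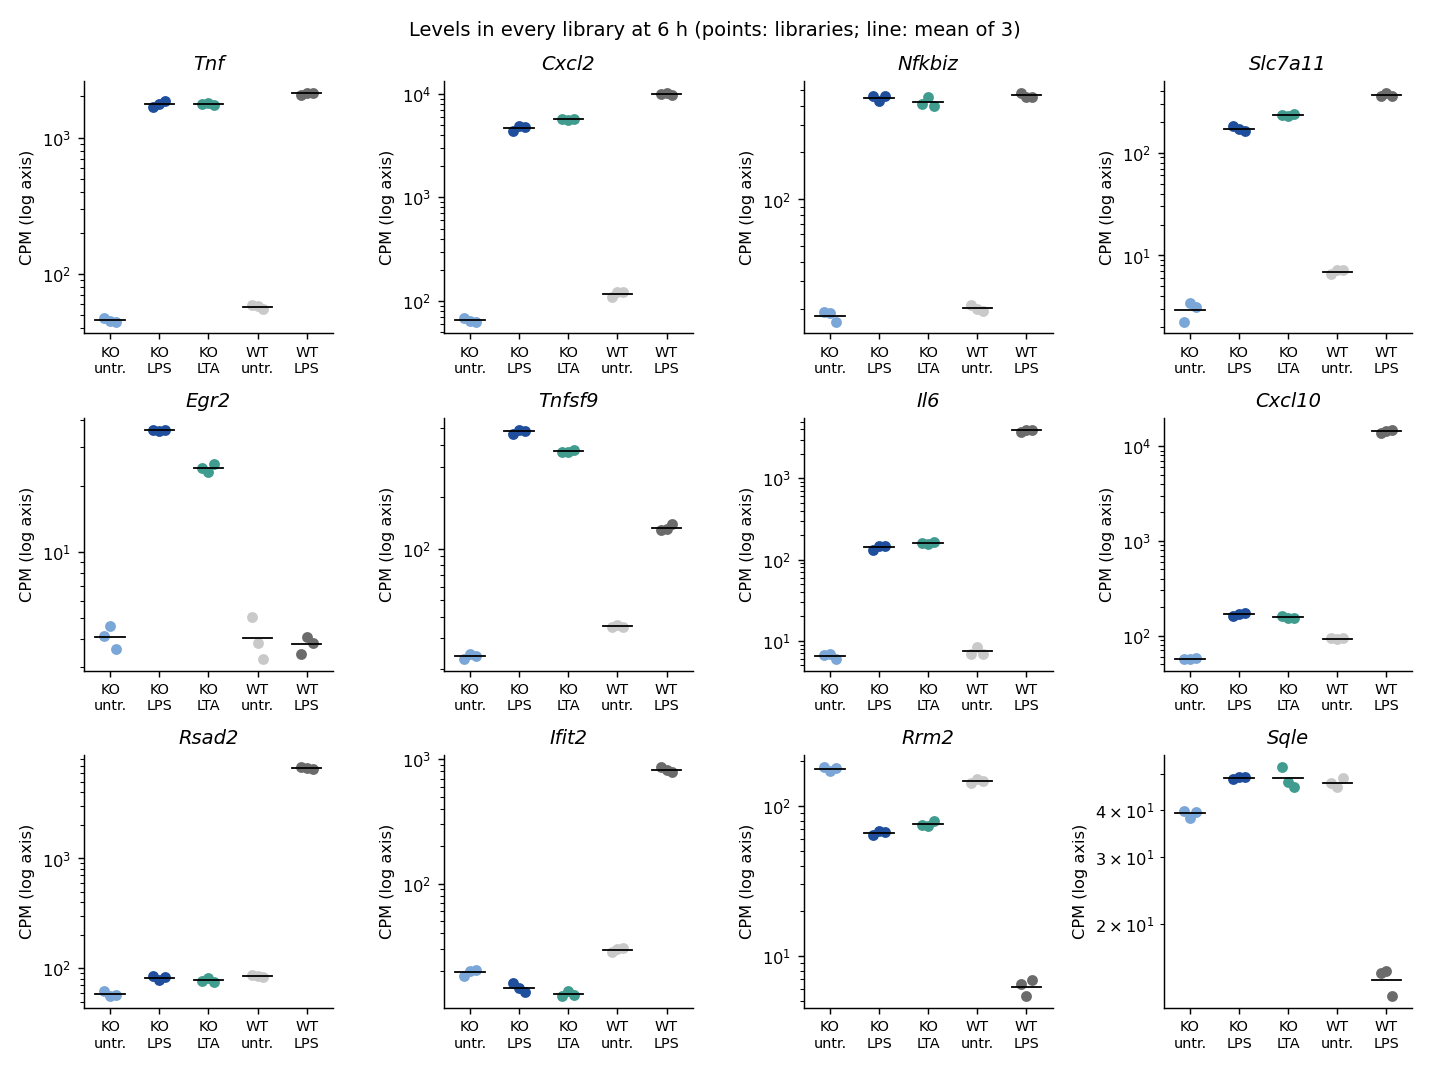
Level of 12 genes in each of 15 libraries, in TMM-normalised CPM on a log axis whose range differs between panels, for KO untreated, KO with LPS, KO with LTA, WT untreated and WT with LPS at 6 h. Points are libraries and lines the mean of 3. Tnf, Cxcl2, Nfkbiz and Slc7a11 climb in KO as in WT, Cxcl10 and Rsad2 stay far below WT, Ifit2 falls in KO, and Egr2 and Tnfsf9 end higher in KO than in WT.

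Genes of the receptor itself moved moderately. Of 19 tested genes of the TLR4 complex and its adaptors, 14 rose and 3 fell in KO, where 25.7% and 26.6% of all genes did. Their median log2 fold change was 0.40, and the median over all genes was 0.01. Cd14, the co-receptor that hands LPS to TLR4, stood at 944, 1025 and 974 CPM untreated and at 3042, 3321 and 3273 CPM with LPS. The 3 treated libraries lay far above the 3 untreated ones, a log2 fold change of 1.71 ± 0.042 (SE, n = 3 and 3, adjusted p = 7.3e-39). Irak3, an inhibitory kinase-like protein of the MyD88 complex, rose by 2.98 ± 0.066 and Irak2 by 2.13 ± 0.052. Tlr4 itself fell from 77.6, 71.8 and 79.5 CPM to 49.7, 51.5 and 49.2 CPM, a change of -0.61 ± 0.054. Myd88 rose by 0.76 in KO against 2.20 in WT, a genotype difference of -1.43 (adjusted p = 6.9e-25). Ticam1, the gene of TRIF, rose by 0.89 ± 0.079 in KO and by 1.01 in WT, and the difference of -0.11 was not called (adjusted p = 0.44). The remaining Ticam2 counts also rose, by 1.32 ± 0.33 (adjusted p = 0.0007). The labels do not say which part of the gene was deleted, so these counts are no check of the protein.

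Inflammatory cytokines rose in KO. Of 20 genes on the list, 19 rose, 18 of them at least 2-fold, where 25.7% of all genes rose and 6.67% rose at least 2-fold. The median log2 fold change was 3.35, beside 6.37 for the same genes in WT. Tnf, the cytokine tumour necrosis factor, stood at 47.5, 45.4 and 44.4 CPM untreated and at 1676, 1775 and 1859 CPM with LPS. It was 38.7-fold higher (log2 5.27 ± 0.047, adjusted p = 6.4e-60), against 36.8-fold in WT. The genotype difference for Tnf was 0.07 on the log2 scale, with a 95% interval of -0.05 to 0.20, and was not called (adjusted p = 0.33). Scaled by library totals, this difference was 0.58 and was called.

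Il1b, the gene of interleukin-1 beta, rose from 47.8, 46.3 and 43.3 CPM to 1593, 1652 and 1762 CPM in KO, which is 36.5-fold where WT rose 215-fold. Il6, a cytokine of the acute phase response, stood at 6.61, 6.81 and 5.97 CPM untreated and at 131, 148 and 149 CPM with LPS. No untreated library came near a treated one, yet the WT libraries with LPS averaged 3879 CPM, and the rises of 4.46 ± 0.072 in KO and 9.02 in WT differed by -4.56 (adjusted p = 4.8e-35). Il12b, the p40 subunit of interleukins 12 and 23, had 18, 12 and 18 counts untreated and 193, 208 and 178 with LPS, a rise of 3.62 ± 0.23 against 9.10 in WT. Il10, an anti-inflammatory cytokine, rose by only 1.23 ± 0.20 from 1.37, 1.90 and 1.56 CPM to 4.12, 3.74 and 3.60 CPM, against 5.67 in WT. Il19 was not called, at means of 0.180 and 0.238 CPM, about the level of 3 counts, so that little could be read from it. In all, the KO rise was smaller than the WT rise for 16 of the 20 genes and larger for 1, Tnfsf9. The genotype difference was called lower in KO for 23.5% of all genes and higher for 27%.

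Neutrophil and monocyte chemokines rose for all 14 genes of the list, where 25.7% of all genes rose in KO. The median was 3.41 beside 5.89 in WT. Cxcl3, which draws neutrophils, was at 12.6, 12.4 and 10.5 CPM untreated and at 2120, 2312 and 2265 CPM with LPS. This was a 189-fold rise in KO and a 183-fold rise in WT, and the difference of 0.05 (95% interval -0.13 to 0.24) was not called. Cxcl2, whose promoter is printed above, rose from 67.8, 64.3 and 62.5 CPM to 4424, 4929 and 4783 CPM. Its rise of 6.18 ± 0.053 lay below the 6.41 of WT by 0.23 (adjusted p = 0.0023), a difference that turned to 0.28 higher in KO when libraries were scaled by their totals. Cxcl1, another attractant of neutrophils, rose by 5.70 ± 0.078 and by 6.56 in WT. The attractants of monocytes and T cells Ccl3 and Ccl4 rose by 4.10 ± 0.047 and 2.92 ± 0.046, against 6.05 and 5.49 in WT, and both differences were called.

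NF-kB subunits and the inhibitors that NF-kB itself turns on rose for 23 of 24 genes, 22 of them at least 2-fold. The shares over all genes in KO were 25.7% and 6.67%. The median was 2.26 beside 3.50 in WT. Nfkbia, the gene of the inhibitor IkB-alpha, rose from 394, 399 and 374 CPM to 4081, 4427 and 4475 CPM. Its rise was 3.48 ± 0.041 in KO and 3.60 in WT, a difference of -0.12 (adjusted p = 0.048) that was lost without any 1 of 5 libraries (KO untreated replicates 1 and 2, KO LPS replicate 1, WT untreated replicates 2 and 3) and became 0.38 with library totals. Nfkbiz, the IkB-like co-factor needed for a second wave of NF-kB targets, rose from 18.9, 18.7 and 16.4 CPM to 462, 430 and 458 CPM. The rises of 4.65 ± 0.061 in KO and 4.53 in WT were not told apart (difference 0.12, 95% interval -0.06 to 0.30, adjusted p = 0.29). Socs3, a feedback inhibitor of cytokine receptors, rose 86.3-fold and Tnfaip3, the ubiquitin-editing inhibitor A20, by 4.42 ± 0.054. The member that fell was Cyld, a deubiquitinase that restrains NF-kB, by 0.22 ± 0.073 on the log2 scale (adjusted p = 0.0091), and this call was lost without the KO untreated replicate 2 or the KO LPS replicate 3.

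**Figure D2:**
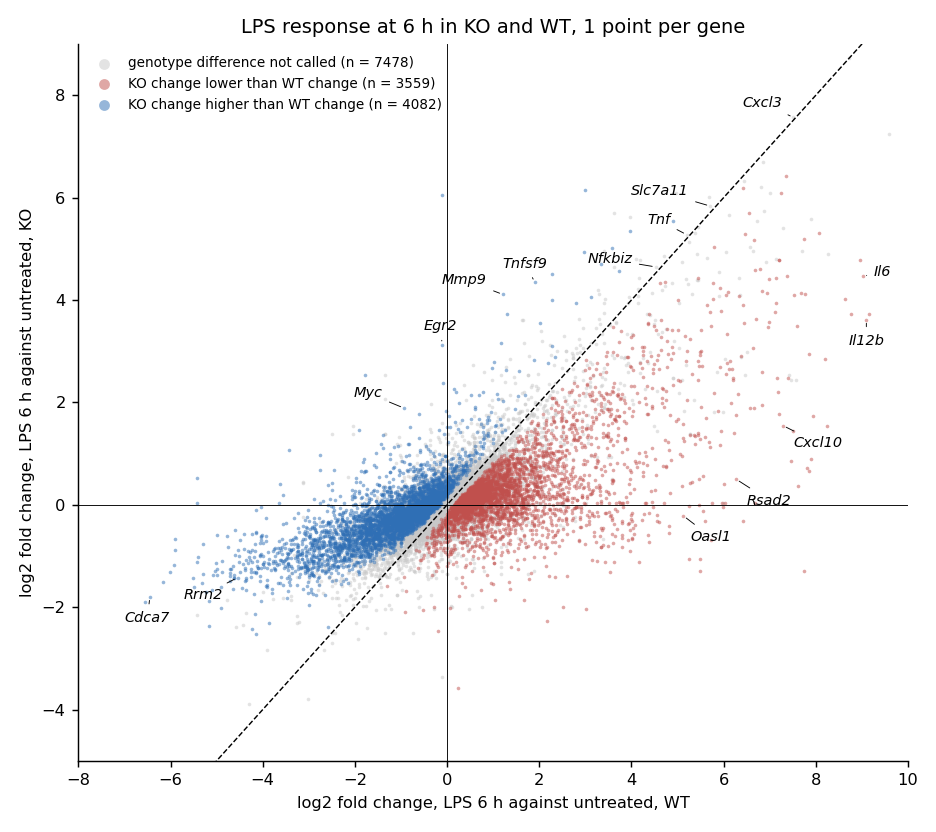
Log2 fold change with LPS at 6 h in KO (vertical) against that in WT (horizontal), 1 point per gene for 15119 genes, of which 1 lies outside the axes. The dashed line marks equal change. Cxcl3, Tnf, Nfkbiz and Slc7a11 sit on the line, Il6 and Il12b far right of it, Cxcl10, Rsad2 and Oasl1 near the horizontal axis, and Tnfsf9, Mmp9, Egr2 and Myc above it.

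Targets of IRF3 moved in both directions in KO. Of 12 genes on this list, 8 rose, 4 of them at least 2-fold (Ifnb1, Cxcl9, Ccl5 and Cxcl10), 3 fell and 1 was not called in KO, with a median of 0.70, while all 12 rose in WT with a median of 4.86. In KO, 25.7% of all genes rose and 26.6% fell. Ifnb1, the gene of interferon beta, had 0, 1 and 2 counts untreated and 5, 7 and 7 with LPS in KO, so its rise (2.47 ± 0.64, adjusted p = 0.00095) rests on few counts. In WT it averaged 0.253 CPM untreated and 8.13 CPM with LPS, and the genotype difference of -2.44 was not called (adjusted p = 0.084) by edgeR but was called by DESeq2. Cxcl10, a chemokine that draws activated T cells, stood at 57.1, 56.3 and 58.0 CPM untreated and at 162, 168 and 171 CPM with LPS. The groups did not overlap and the rise was 2.92-fold, against 156-fold in WT (genotype difference -5.74 ± 0.06 on the log2 scale, adjusted p = 1.6e-55). Ccl5, an attractant of T cells and monocytes, rose 3.69-fold from 88.5, 85.2 and 86.0 CPM to 299, 330 and 329 CPM, against 94.7-fold in WT. Rsad2, the antiviral enzyme viperin, went from 61.7, 55.8 and 57.0 CPM to 84.6, 78.9 and 83.2 CPM, a 1.41-fold rise beside 77.2-fold in WT. Ifit1 rose by 0.76 ± 0.047 and Isg15, a ubiquitin-like modifier, by 0.59 ± 0.046, while Irf7, the factor that amplifies interferon production, fell from 121, 123 and 118 CPM to 97.2, 98.9 and 99.5 CPM.

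The wider set of interferon-stimulated genes had no common direction in KO. Of 49 genes, 9 rose, 15 fell and 25 were not called, with a median of -0.09, whereas all 49 rose in WT with a median of 2.37. Over all genes tested, 25.7% rose and 26.6% fell in KO, and 36.6% rose in WT. The genotype difference was called for all 49, each lower in KO, as for 23.5% of all genes, though that of Irf1 became 0.084 higher with library totals. Irf1, a transcription factor that NF-kB also turns on, was the one member that rose at least 2-fold in KO, by 2.66 ± 0.048 from 44.9, 46.9 and 48.9 CPM to 295, 302 and 296 CPM. The other 8 that rose did so by 0.51 or less. Pml and Mov10, antiviral factors, fell by 0.95 ± 0.071 and 0.84 ± 0.068 on the log2 scale. Ifit2 stood at 17.99, 19.9 and 20.2 CPM untreated and at 16.0, 14.4 and 13.4 CPM with LPS, a fall of -0.41 ± 0.081 against a rise of 4.82 in WT. With library totals, 3 of the 49 rose and 34 fell.

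Interferon-inducible GTPases, which attack the vacuoles of intracellular microbes, moved in both directions. Of 15 genes, 5 rose, 7 fell and 3 were not called in KO, with a median of -0.05 beside 3.80 in WT. Of all genes, 25.7% rose and 26.6% fell in KO. All 5 that rose were guanylate-binding proteins, and Gbp8 and Gbp9 of the same family fell. Gbp2 rose from 11.3, 9.66 and 11.7 CPM to 51.5, 50.2 and 47.8 CPM (2.19 ± 0.077) and Gbp3 by 1.41 ± 0.11, against 5.79 and 6.23 in WT. Gvin1, the very large inducible GTPase, fell by 0.58 ± 0.055 on the log2 scale. Genes of this family have close copies, and how their counts were split is uncertain. Antigen presentation by MHC class I, which interferons also raise, changed little. Of 20 genes, 10 rose, 2 fell and 8 were not called, beside the same shares of all genes. The median was 0.14 beside 1.63 in WT, and with library totals 5 rose and 9 fell. Psme2, a proteasome activator subunit, rose by 1.03 ± 0.039 and the peptide transporter gene Tap2 by 0.69 ± 0.052, while Psmb9, an immunoproteasome subunit, fell from 75.7, 83.1 and 79.4 CPM to 52.7, 54.0 and 52.5 CPM.

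**Figure D3:**
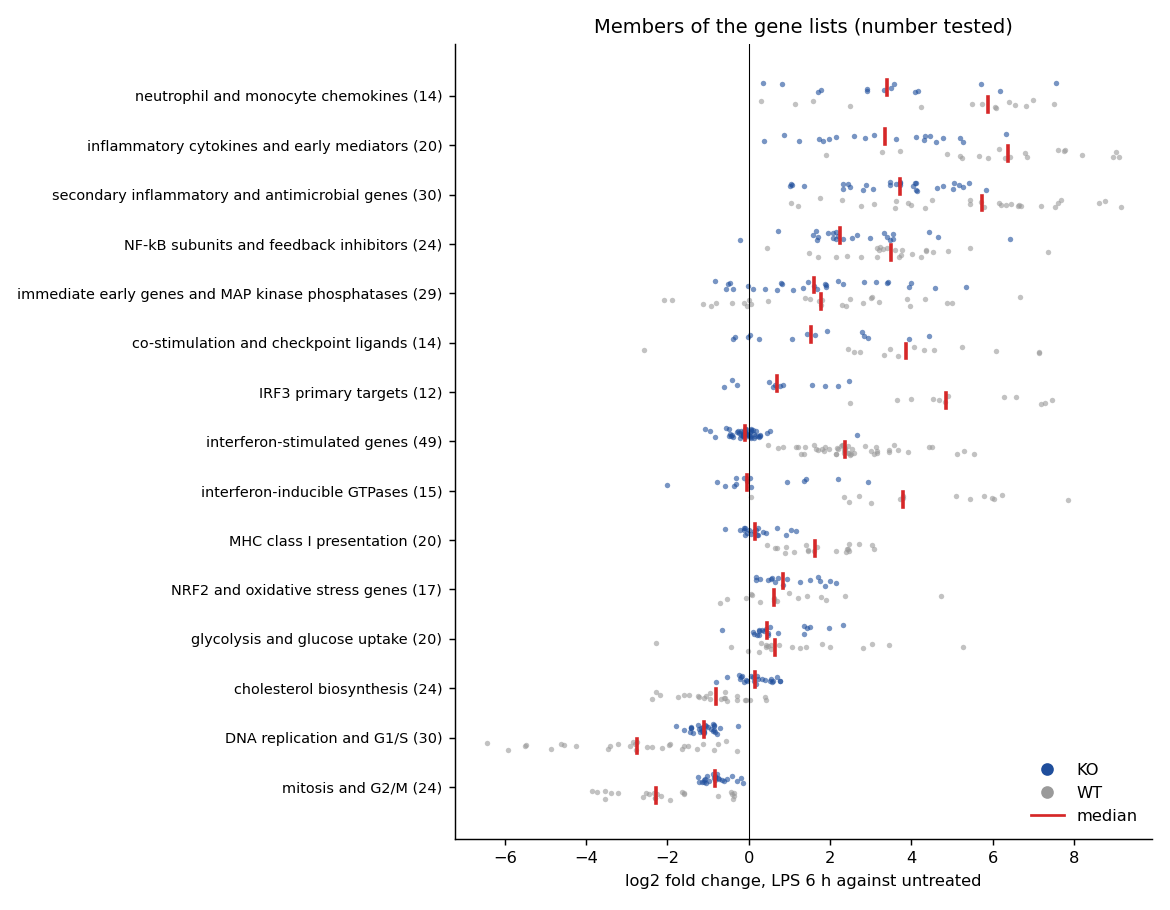
Log2 fold change with LPS at 6 h of each tested member of 15 gene lists, in KO and in WT, with the number tested in brackets and a red line at the median. Chemokines, cytokines and secondary inflammatory genes lie far to the right in both genotypes, interferon-stimulated genes and GTPases are centred near 0 in KO alone, and the cell cycle lists lie to the left in both, nearer to 0 in KO.

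Seen from the WT side, 1164 genes rose by at least 2 on the log2 scale with LPS. In KO, 792 of them (68.0%) also rose, 644 at least 2-fold, 69 fell and 303 were not called, where 25.7% of all genes rose in KO. Without the KO LPS replicate 1, 766 rose. The median rise of the 1164 was 1.35 in KO and 3.19 in WT. The median ratio of the KO to the WT log2 fold change was 0.432, with quartiles of 0.117 and 0.670. The KO rise was smaller by test for 866 genes, larger for 15 and not told apart for 283. Of 928 genes that fell in WT by at least 2, 788 (84.9%) also fell in KO, where 26.6% of all genes fell. Their median ratio was 0.31. Calls of falls in KO depend on the scaling, with 4018 by TMM and 6341 by library totals. Since no library is shared between the genotypes, the 2 responses were measured separately. The genes were picked by their WT change, however, which can tilt the ratios and the test counts toward a smaller KO change.

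Immediate early genes and MAP kinase phosphatases held genes that rose more in KO than in WT and genes that rose less. Of 29 genes, 23 rose, 4 fell and 2 were not called in KO, with a median of 1.60 beside 1.77 in WT. The KO change was higher than the WT change for 9, near the share of 27% over all genes. It was lower for 14, where the share over all genes was 23.5%. Rises and falls in KO were called for 25.7% and 26.6% of all genes. Egr2, a transcription factor of the early growth response family, stood at 4.11, 4.59 and 3.62 CPM untreated and at 36.1, 35.8 and 35.9 CPM with LPS in KO. In WT it averaged 4.05 CPM and 3.78 CPM, so that an 8.75-fold rise in KO stood beside no called change in WT (genotype difference 3.24 ± 0.22, adjusted p = 8.1e-19). Myc, a driver of growth, rose from 15.3, 16.8 and 17.7 CPM to 58.4, 61.6 and 64.8 CPM in KO and fell by 0.94 on the log2 scale in WT. Maff, a small Maf protein, rose by 5.35 ± 0.13 against 3.97, and Dusp5, a phosphatase of nuclear ERK, by 3.95 ± 0.11 against 2.80. By contrast Dusp1, a phosphatase of p38 and JNK, rose by 1.60 ± 0.051 against 3.89, and Dusp2 by 4.58 ± 0.081 against 6.68. Fos stayed at 59.2, 63.3 and 59.8 CPM untreated and 55.4, 60.0 and 63.5 CPM with LPS, which was not called.

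A few genes outside that family also rose more in KO than in WT. Among the 1008 genes that rose at least 2-fold in KO, the rise was larger than in WT for 111, smaller for 464 and not told apart for 433. Picking genes by their KO rise can tilt this split toward a larger KO rise. Tnfsf9, the ligand of the co-stimulatory receptor 4-1BB, went from 22.7, 24.3 and 23.7 CPM to 463, 492 and 486 CPM, 20.3-fold, against 3.74-fold in WT. Mmp9, a gelatinase, had 13, 14 and 17 counts untreated and 254, 263 and 230 with LPS, a rise of 4.11 ± 0.17 against 1.21 in WT. Pim2, a survival kinase, rose by 3.73 ± 0.12 against 1.31, and Id3, an inhibitor of helix-loop-helix factors, by 2.66 ± 0.048 against 0.97. Rasgef1b, an activator of Ras-family GTPases, stood at 74.5, 72.9 and 77.3 CPM untreated and at 361, 363 and 360 CPM with LPS, where WT rose by only 0.16. Smad6, an inhibitor of BMP signalling, rose by 1.78 ± 0.14 in KO and fell by 0.61 on the log2 scale in WT. Of the 1008 genes, 916 also rose in WT, 82 were not called there and 10 fell.

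Effectors of the later inflammatory response rose for all 30 genes of their list, each at least 2-fold, where 6.67% of all genes did so in KO. The median was 3.72 beside 5.75 in WT. Acod1, which makes the antibacterial metabolite itaconate, stood at 31.9, 28.2 and 28.3 CPM untreated and at 973, 949 and 987 CPM with LPS. Its rise of 5.04 ± 0.050 reached most of the 5.79 seen in WT, yet lay below it by test (difference -0.75, adjusted p = 9.5e-15). Nos2, inducible nitric oxide synthase, had 11, 16 and 19 counts untreated and 260, 232 and 247 with LPS, a rise of 4.03 ± 0.15 against 8.63 in WT. Ptgs2, the prostaglandin-forming enzyme COX-2, rose from 11.5, 10.4 and 10.5 CPM to 302, 290 and 292 CPM, 4.77 ± 0.059 against 7.19. Slc7a11, the cystine importer, rose from 2.26, 3.48 and 3.13 CPM to 180, 169 and 161 CPM. This rise of 5.83 ± 0.080 and the WT rise of 5.71 were not told apart (difference 0.13, 95% interval -0.16 to 0.41), nor were those of Mmp14, a membrane metalloproteinase (5.42 ± 0.077 and 5.44, 95% interval of the difference -0.38 to 0.35). With library totals both differences were called higher in KO, at 0.63 and 0.49.

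Surface molecules by which macrophages address T cells rose in part. Of 14 tested co-stimulation and checkpoint genes, 8 rose, 1 fell and 5 were not called, with a median of 1.54 beside 3.87 in WT. Among all genes, 25.7% rose and 26.6% fell in KO. Cd40, the receptor of CD40 ligand, rose from 8.79, 7.76 and 7.17 CPM to 119, 127 and 120 CPM, 3.95 ± 0.063 against 7.13 in WT. Cd83 and Icosl, a maturation marker and a ligand of the co-stimulatory receptor ICOS, rose by 2.92 ± 0.063 and 2.84 ± 0.074 against 2.73 and 2.59, and neither difference was called (adjusted p = 0.10 and 0.086). Cd86, the classical ligand of CD28, averaged 4.81 CPM untreated and 5.77 CPM with LPS and was not called in KO (adjusted p = 0.13), while it rose by 3.48 in WT. Il15, whose product sustains NK and memory T cells, fell from 34.5, 33.3 and 33.6 CPM to 22.3, 26.1 and 28.3 CPM in KO and rose by 4.08 in WT.

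Genes of the oxidative stress response under NRF2 rose for all 17 members, with a median of 0.85 beside 0.62 in WT, and with library totals 14 rose. The KO change was higher than the WT change for 8 and lower for 4, beside 27% and 23.5% of all genes. Hmox1, which degrades heme, stood at 170, 170 and 164 CPM untreated and at 748, 711 and 768 CPM with LPS, a 4.42-fold rise beside 1.62-fold in WT (genotype difference 1.45, adjusted p = 7.2e-28). Gclm, a subunit of the enzyme that starts glutathione synthesis, rose from 127, 135 and 132 CPM to 367, 376 and 382 CPM, while its WT change of 0.05 was not called. Gsr, which recycles glutathione, and Txnrd1, a thioredoxin reductase, rose by 2.00 ± 0.046 and 1.76 ± 0.042, against 2.37 and 1.89 in WT. The lower rise of Gsr in KO was called, but turned to 0.14 higher with library totals, and that of Txnrd1 was not (adjusted p = 0.054), while DESeq2 called it, at -0.21. Glycolysis moved in the same direction, with 17 of 20 genes higher, 1 lower and a median of 0.44. In KO, 25.7% of all genes were higher and 26.6% lower. Some of these rises were small, such as 0.20 for Hk3 and 0.25 for Pkm, about the size of the shift of the median gene with library totals. Slc2a1, the glucose transporter GLUT1, rose from 44.9, 43.4 and 47.4 CPM to 221, 237 and 218 CPM, 2.32 ± 0.051 against 2.82 in WT, a difference that became 0.0031 with library totals, and the lactate exporter gene Slc16a3 by 1.97 ± 0.050 against 2.01.

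Cholesterol synthesis did not fall in KO as it did in WT. Of 24 tested genes, 11 rose, 3 fell and 10 were not called in KO, with a median of 0.16, whereas 18 fell in WT with a median of -0.81. Across all genes, 25.7% rose and 26.6% fell in KO, and 36.1% fell in WT. The genotype difference was called for 21 genes, all higher in KO, where 27% of all genes were called higher. Sqle, squalene epoxidase, stood at 39.8, 38.2 and 39.7 CPM untreated and at 48.3, 49.0 and 49.2 CPM with LPS in KO (0.32 ± 0.057), and fell by 1.74 on the log2 scale in WT. With library totals, 8 genes of the list rose and 9 fell in KO, and the call of Sqle was lost. Among 10 tested genes of cholesterol efflux and LXR action, 4 rose and 4 fell. Ch25h, which makes 25-hydroxycholesterol, rose by 2.09 ± 0.065 against 4.28 in WT, and Abcg1, an exporter of cholesterol, fell by 0.86 ± 0.050 on the log2 scale.

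Cell cycle genes fell as a whole. All 30 genes of DNA replication and G1/S and all 24 of mitosis fell in KO, where 26.6% of all genes fell, with medians of -1.10 and -0.83 beside -2.75 and -2.27 in WT. Rrm2, the small subunit of ribonucleotide reductase, stood at 183, 171 and 180 CPM untreated and at 64.0, 68.0 and 67.1 CPM with LPS. The groups lay far apart, a fall of -1.42 ± 0.044 (adjusted p = 5.1e-34), and the WT libraries went from 146 to 6.25 CPM, a fall of -4.54. Uhrf1, which maintains DNA methylation through division, fell by 1.26 ± 0.052 on the log2 scale against 4.25 in WT. Aurkb and Top2a, a mitotic kinase and a topoisomerase, fell by 1.23 ± 0.066 and 1.14 ± 0.057. The KO fall was smaller by test for 24 of the 30 replication genes and larger for 2, and smaller for 20 of the 24 mitosis genes and larger for 2. Over all genes, the genotype difference was called higher in KO for 27% and lower for 23.5%. In bulk samples like these, fewer cycling cells and less RNA of these genes per cell cannot be told apart.

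Receptors and lineage factors of macrophages shifted in both directions, with 12 of 35 tested genes higher, 20 lower and 3 not called. Among all genes, 25.7% were higher and 26.6% lower in KO. Fcgr2b, the inhibitory receptor for IgG, rose from 23.3, 24.4 and 25.8 CPM to 473, 500 and 509 CPM, 4.33 ± 0.052 against 5.76 in WT. Tlr2, the receptor of lipoproteins and LTA, rose by 2.38 ± 0.051, against 2.76 in WT, a difference that turned to 0.13 higher in KO with library totals. Fcgr1, the high-affinity receptor for IgG, went the opposite way in the 2 genotypes, from a mean of 89.8 CPM to 52.8 CPM in KO (-0.76 ± 0.058) and up by 1.91 in WT. Of the genes at 2 or more in mean log2 CPM, with a full symbol, called and without overlap between the groups, the largest fall was that of Rgs2, a brake on G protein signalling, from 356, 364 and 361 CPM to 63.6, 73.2 and 70.2 CPM. This fall of -2.38 ± 0.049 lay beside -2.57 in WT, and their difference of 0.19 (adjusted p = 0.027) was lost under DESeq2. Next came Ighm, an immunoglobulin heavy chain, at 11.5, 12.9 and 11.4 CPM untreated and 3.46, 2.39 and 3.23 CPM with LPS, and Rnase6, an antimicrobial ribonuclease, which fell by 1.95 ± 0.099 on the log2 scale. Of 7 listed B cell markers 3 were tested, and Ighm makes up most of their summed level. This level was 14.5 to 17.3 CPM untreated and 4.22 to 5.85 CPM with LPS. Of the other 6 markers only Cd79b and Igkc passed the filter, and both fell, by 0.67 ± 0.25 and 0.88 ± 0.32 on the log2 scale. Both calls were lost under DESeq2, and each without any 1 of 3 libraries, for Cd79b the untreated replicate 2 and the LPS replicates 1 and 2, for Igkc the untreated replicates 2 and 3 and the LPS replicate 2. The part of these cells in the result was not tested.

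Few genes differed between LPS and LTA in KO macrophages at 6 h. In a contrast of the treated groups, which does not involve the untreated libraries, they differed for 402 genes (2.66%), 203 higher with LPS (1.34%) and 199 higher with LTA (1.32%), and for 8 of these by at least 2-fold. This count depends on single libraries. It was 850 without the LPS library of replicate 1, 175 and 192 without those of replicates 2 and 3, and 265, 214 and 257 without the LTA libraries of replicates 1, 2 and 3. Of the 1008 genes that rose at least 2-fold with LPS, 86 were higher with LPS than with LTA, 33 lower and 889 not called. These genes were picked with the same LPS libraries, which can tilt this split toward LPS, so nothing is read from it. Tnf averaged 1770 CPM with LPS and 1766 CPM with LTA, a log2 difference of 0.00 (95% interval -0.07 to 0.08).

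**Figure D4:**
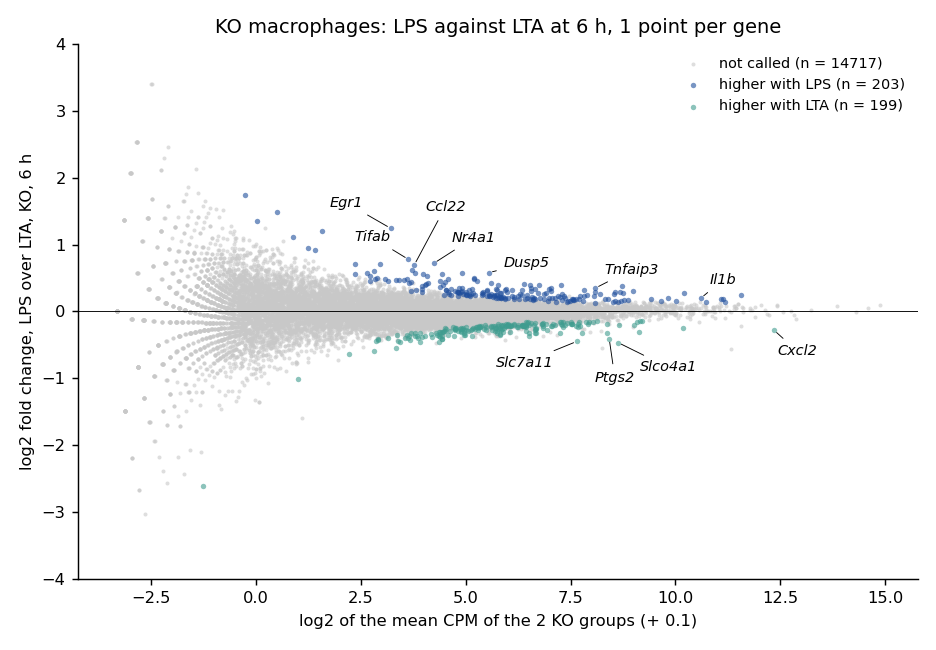
Log2 fold change of LPS over LTA in KO at 6 h (vertical) against the log2 mean CPM of both KO groups (horizontal), 1 point per gene, with the 402 called genes in colour. Most called genes lie within 1 of the zero line. Egr1, Tifab and Nr4a1 are among the labelled genes above it, and Slco4a1, Slc7a11 and Ptgs2 among those below it.

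The genes that LPS raised above LTA included early response genes, 13 of the 29 on that list, against 2 lower. Over all genes the shares were 1.34% and 1.32%. Egr1, an early growth response factor, was at 13.3, 12.1 and 13.2 CPM with LPS and averaged 5.43 CPM with LTA, a difference of 1.24 ± 0.11 (adjusted p = 1.2e-11). Nr4a1, an orphan nuclear receptor of the same wave, was higher with LPS by 0.72, Egr2 and Dusp5 by 0.58 each, and the chemokine gene Ccl22 by 0.69. Il1a and Il1b were also higher with LPS, by 0.32 and 0.20. Genes higher with LTA were the organic anion transporter gene Slco4a1, by 0.47, Slc7a11, by 0.45, Ptgs2, by 0.41, and Cxcl2, by 0.28. Of the 17 NRF2 genes, 6 were higher with LTA and 1 with LPS. Among 49 interferon-stimulated genes, 7 were higher with LPS and 1 with LTA, and of 12 IRF3 targets 4 were higher with LPS, Ccl5 by 0.26 and Ifit1 by 0.24. These list counts and differences are from the full fit. The list counts were not repeated with libraries left out, although the total then ranged from 175 to 850. For the genes named, leaving out 1 library lost a call of this contrast in 40 cases, counted per gene and library. The doses of the ligands were 10 ng/mL and 100 ng/mL, so the comparison is of these doses.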

How the data were processed

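Expected counts per gene were deposited by the authors for all 30 libraries, with 0 columns left without a sample. Per the submitters' processing notes the tools were fastp 0.24.0, STAR 2.7.11, SAMtools 1.22.1 and featureCounts of Subread 2.1.1, on GRCm38 (mm10). The sources used here name no counting settings, strand use or RNA selection. Of the values above 0, 25.2% were not whole, and all were rounded. Reads of near-identical or overlapping genes may be split or lost in such counts.

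GENCODE M21 named 26314 of 32361 gene IDs. A quasi-likelihood model (edgeR 4.0.16, R 4.3.3) with TMM factors and 1 coefficient per group was fitted to all 30 libraries and 15119 genes, kept by filterByExpr with a minimum count of 10 and a minimum total of 15. Each fit adjusted p-values over all genes by Benjamini-Hochberg, and a gene was called at 0.05. The 12 libraries of 2 h, at 1334784 to 2658329 counts, entered the fit only. In the 6 libraries compared, 3 counts, taken as the limit that a count of 0 allows, came to 0.222 to 0.278 CPM, for counting error only. Tested on simulated data for the KO comparison with 13555 genes, the fit recovered 83 of 100 changes of 1.5-fold and 99 of 100 of 2-fold. It called 11 unchanged genes. The changed genes lay above 2 CPM, with as many rises as falls, and all other genes kept the untreated KO level in every library. Far fewer genes changed than in the data, so genes of low level and the scaling were not tested by it. DESeq2 1.42.0 was an alternative, as were other scalings, filters, library sets, a replicate block and leaving out each replicate.

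Genes named were preset genes, up to 4 of each list with the smallest p in KO, the 12 largest rises and falls (called, at 2 or more in mean log2 CPM, with a full symbol and without overlap between the groups), the 8 on each side whose change most exceeded WT, 6 of each opposite direction, and the 8 largest and 8 smallest of LPS against LTA, in part left out. Cd79b, Cd86, Cxcl9, Cyld, Hbb-bs, Igkc, Fcgr1, Gbp8, Gbp9, Il19, Lyz2, Malat1, the ferritin genes and the genes of cell death, lysosome and LXR action in the closing section that fall outside it were chosen after their values were seen. Members and lists were chosen with earlier results of these data known. Some genes are not reported here.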

Additional observations from a re-analysis of the deposited data

Results flagged for a closer look

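The response to LPS at 6 h differed between KO and WT for 7641 of 15119 genes by the test of the difference itself (edgeR, Benjamini-Hochberg adjusted p of 0.05), 50.5% of those tested. Values below are the KO minus WT difference of the log2 fold change.

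Among genes called up in KO and down in WT, the difference was 2.97 for Tacc2, 2.82 for Myc, 2.80 for Tal2, 2.39 for Smad6, 2.34 for Polr1b, a subunit of RNA polymerase I, and 2.28 for AA414768. The KO rises of Tacc2, Tal2 and Polr1b were small, at 0.39 ± 0.16, 0.29 ± 0.093 and 0.45 ± 0.18, while their WT falls were -2.58, -2.50 and -1.90. These 3 KO calls and that of Oasl1 were lost without at least 1 of the 6 libraries. For Tacc2 this held for the untreated replicates 1 and 2 and the LPS replicates 1 and 2, for Tal2 for LPS replicate 1, for Polr1b for the untreated replicates 1 and 3 and LPS replicate 3, and for Oasl1 for the untreated replicate 1. Among genes called down in KO and up in WT, it was -5.34 for Oasl1, an antiviral gene, -5.28 for Ifi208 and -4.67 for Ifi209, both of the interferon-inducible p200 family, -5.23 for Ifit2, -4.54 for Ccnd2, cyclin D2, and -4.47 for Il15. Ccnd2 stood at 60.0, 62.5 and 58.0 CPM in untreated KO libraries and at 27.9, 27.6 and 27.9 CPM with LPS, and rose by 3.43 in WT.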

How the results depend on the processing

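Scaling by library totals in place of TMM shifted the median gene by -0.19 in KO, -0.66 in WT and 0.52 in the genotype difference (log2). Calls in KO became 2365 up and 6341 down, with 1098 down at least 2-fold, in WT 2450 up and 9630 down, and in the genotype difference 8452 higher and 1647 lower. Genotype differences that changed sign were those of Cxcl2 (0.28), Nfkbia (0.38), Irf1 (0.084), Abcg1 (0.054), Slc2a1 (0.0031), Gsr (0.14), Tlr2 (0.13), H2-Ab1 (0.32), Fth1 (0.22) and Bbc3 (0.0040). Of the genes that rose in WT by at least 1 and at least 3, 1531 and 464 rose in KO, against 792 at 2, since the sets differ in size. Leaving out each replicate in turn gave 7271 to 7647 calls in KO, 7301 to 7530 for the genotype difference and 761 to 814 WT-induced genes that rose in KO. For LPS against LTA it gave 175 to 850 calls, 108 to 436 up and 67 to 414 down. DESeq2 called 7187 genes in KO, 7171 of them shared. Same-numbered untreated and LPS libraries did not deviate together in KO (Pearson r across 6590 genes of -0.115, 0.039 and -0.115), and a replicate block gave 7940 KO calls, 7864 of them shared, 10996 in WT, 7666 genotype differences and 455 calls for LPS against LTA.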

Other observations

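Regulators of cell death and survival moved in both directions in KO, with 13 of 24 higher, 8 lower and a median log2 fold change of 0.30 beside 0.96 in WT. Of all genes, 25.7% were higher and 26.6% lower in KO. With library totals, 10 rose and 10 fell. Pim1, a survival kinase, rose by 3.09 ± 0.044, Fas, a death receptor, by 2.98 ± 0.092 and Cflar, an inhibitor of caspase-8, by 2.12 ± 0.11. Fas rose by 2.88 in WT, and its genotype difference of 0.11 was not called. Bbc3, which promotes apoptosis, fell by 1.09 ± 0.060 on the log2 scale.

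Of 25 genes of lysosomal proteins and their regulators, 6 were higher and 8 lower, shares near the 25.7% and 26.6% of all genes, or 2 and 19 with library totals. Ctsc, a cathepsin that activates serine proteases, rose by 0.77 ± 0.040 and Lipa, lysosomal acid lipase, fell by 0.44 ± 0.045 on the log2 scale. MHC class II genes had 4 of 8 higher and 1 lower, or 2 and 3 with library totals, led by H2-Ab1 at 0.80 ± 0.049. Nr1h3, the gene of the sterol sensor LXR-alpha, averaged 12.1 CPM untreated and 38.5 CPM with LPS, a rise of 1.67 ± 0.081 that exceeded the 0.51 of WT by 1.16. Ribosomal protein genes had 21 of 34 higher and 0 lower, or 2 and 12 with library totals. Of 13 mitochondrially encoded genes 5 fell and 0 rose, or 10 fell with library totals.

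Fth-ps2, a pseudogene of the ferritin heavy chain, had 0 counts in all 6 untreated libraries and 1483 to 2237 counts in each of the 12 libraries of 6 h, at least 621-fold higher in KO with LPS against a floor of 3 counts per library. Fth-ps3 had at most 6 counts in the untreated libraries and 1009 to 1579 in those of 6 h. Fth1, the parent gene, rose by only 0.47 ± 0.041 in KO. In the 12 libraries of 2 h, Fth-ps2 had 0 counts and Fth-ps3 at most 2. Hbb-bs, a haemoglobin gene with a close copy, also had 0 counts in all libraries of 2 h, against 24388 to 32371 in the 6 KO libraries compared. The ferritin copies are nearly identical to Fth1, so their counts are uncertain. Whether all libraries were counted with the same settings is not stated, and the cause of these splits was not tested.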
